A study of Mus musculus with 4 samples.

Results

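The genes described here are 33 members of the homologous recombination and Fanconi anaemia repair machinery, chosen by name for their role in the pathway, at a time when earlier results of these data were known. All 33 were among the 13792 genes listed in each of the 2 RNA tables. The series set 1 RNA library of mouse B cells infected with a retrovirus carrying Ascl2 (RVKM-Ascl2) against 1 library infected with the same virus without an insert (RVKM-Empty). Both started from naive B cells of the inbred mouse strain C57BL/6, and both were stimulated in culture with antibodies to IgM and to CD40, so the control cells were infected and activated as well. Ascl2 encodes a transcription factor of the basic helix-loop-helix class. The labels give no age of the mice, no number of mice, no time in culture and no share of infected cells. With 1 library per group there is no replicate error, no difference has a replicate check, and no p-value was computed. The 2 chromatin samples of the series, from germinal centre B cells, are not used here.

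Homologous recombination mends DNA breaks by copying an intact sister strand, which confines it to cells that are replicating or have replicated their DNA. Broken ends are trimmed to single strands, BRCA proteins prepare those strands for exchange, and proteins such as RAD51C, XRCC3 and RAD54L assist the invasion of the intact copy. The Fanconi pathway removes links between the strands: a core complex attaches ubiquitin to the FANCD2 and FANCI pair, which brings in nucleases and then the recombination proteins. B cells in germinal centres divide fast while the deaminase AID damages their DNA, and recombination is known to protect such cells from breaks left during replication.

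Promoter windows are shown first, since Ascl2 and its relatives bind DNA at E-boxes, for which CAGCTG is a known core. RefSeq on GRCm38.p6, the assembly called mm10, gave a window of 250 bases before to 50 bases after the start for 26 of the 33 genes. The core CAGCTG, which reads the same on both strands, was in the windows of 4 of these 26 genes (15.4%), against 17.0% of 8629 expressed genes (a value of 1 or more in either library) and 18.3% of all 27025 genes in the reference table. The 4 genes were Fancb, Slx4, Palb2 and Rad51b. The related core CAGGTG, or CACCTG on the other strand, was in 2 of the 26 (7.69%), Fanca and Rad54l, against 20.3% of expressed genes. In the 250 bases before the start alone CAGCTG was in the same 4 genes (15.4%), against 13.4% of expressed genes, so its share lay below or above that of expressed genes depending on the window. In both windows the difference amounts to less than 1 gene of the 26.

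The 250 bases before the start are printed for 3 of the genes with CAGCTG, and for Brip1 and Xrcc3, which had the second highest and the lowest ratio of the module. Fancb had the highest ratio and is among the first 3. Capitals mark CAGCTG, and CCAAT together with its other-strand form ATTGG. The Slx4 window is not printed because its start lies 2151 bases inside the annotated gene, and the Fancb start lies 112 bases inside.
Fancb, chrX:164980342-164980591, plus strand: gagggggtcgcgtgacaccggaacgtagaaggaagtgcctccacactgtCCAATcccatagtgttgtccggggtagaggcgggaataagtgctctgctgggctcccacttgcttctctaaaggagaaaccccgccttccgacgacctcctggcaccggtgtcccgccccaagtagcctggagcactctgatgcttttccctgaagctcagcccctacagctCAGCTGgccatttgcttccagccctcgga
Palb2, chr7:122132947-122133196, minus strand: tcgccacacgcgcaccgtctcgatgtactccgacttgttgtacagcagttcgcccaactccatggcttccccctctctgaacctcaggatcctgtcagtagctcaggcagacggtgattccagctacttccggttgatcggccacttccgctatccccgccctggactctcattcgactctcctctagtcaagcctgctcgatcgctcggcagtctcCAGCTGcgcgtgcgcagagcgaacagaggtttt
Rad51b, chr12:79297032-79297281, plus strand: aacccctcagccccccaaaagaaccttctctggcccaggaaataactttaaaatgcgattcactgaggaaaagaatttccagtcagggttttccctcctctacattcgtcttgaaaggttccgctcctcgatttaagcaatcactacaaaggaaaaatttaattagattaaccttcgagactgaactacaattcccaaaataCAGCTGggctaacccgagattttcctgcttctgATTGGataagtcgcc
Brip1, chr11:86201194-86201443, minus strand: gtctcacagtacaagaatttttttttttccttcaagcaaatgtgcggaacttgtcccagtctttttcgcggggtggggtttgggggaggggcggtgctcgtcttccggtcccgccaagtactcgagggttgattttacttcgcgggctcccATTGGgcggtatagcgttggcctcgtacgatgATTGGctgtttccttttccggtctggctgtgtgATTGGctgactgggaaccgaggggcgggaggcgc
Xrcc3, chr12:111813880-111814129, minus strand: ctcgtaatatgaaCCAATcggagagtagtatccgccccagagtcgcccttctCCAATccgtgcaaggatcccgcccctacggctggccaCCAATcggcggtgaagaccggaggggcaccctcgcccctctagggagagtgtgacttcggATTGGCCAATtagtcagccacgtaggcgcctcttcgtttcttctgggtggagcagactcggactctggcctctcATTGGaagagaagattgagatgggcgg

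The CAGCTG began 29 bases before the start in Fancb, 33 bases before it in Palb2 and 48 bases before it in Rad51b. A further listed start of Rad51b, not printed, lies 117 bases after the first base of the same CAGCTG. Members with the core had a median log2 ratio of 0.17 (4 genes, among them Slx4, whose window starts inside the gene). Members without it had one of 0.11 (22 genes). The 4 genes with CAGCTG ranged from −0.009 (Palb2) to 0.41 (Fancb). For CAGGTG or CACCTG the order was reversed, with medians of 0.04 with it (2 genes) and 0.12 without it (24 genes). Over expressed genes the medians were −0.01 with CAGCTG (1469 genes) and −0.03 without it (7155 genes). These differences were not tested. CCAAT, the site of the factor NF-Y, was in the windows of 16 of the 26 genes (61.5%), against 43.4% of expressed genes. Without Fancc, Slx4 and Fancm, whose windows start over 1000 bases from the annotated end of the gene, it was in 13 of 23 (56.5%). The 16 members with CCAAT had a median log2 ratio of 0.09 and the 10 without it one of 0.14, which was not tested either. CCAAT occurs in both directions of the ratio: Brip1 has 3 copies in the stretch above and Xrcc3 has 6. The E2F cores TTTCGCGC and TTTGGCGC, searched on both strands, were in 1 of the 26 genes, Rad51c, against 2.03% of expressed genes. The match belongs to a Rad51c start 448 bases inside the annotated gene, and the window at the annotated end has none. Rad51c had a log2 ratio of 0.16, and members without these cores had a median of 0.11 (25 genes). A match describes letters in the window and not a site of binding.

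The inserted gene checks the labels. Ascl2 was 29.4 in the RVKM-Ascl2 library and 0.0809 in the RVKM-Empty library, in units of the deposited abundance. The values look scaled for depth and gene length, and levels of different genes are compared on that scale only. The B cell label was checked against 6 marker genes (Cd79a, Cd79b, Ms4a1, Pax5, Cd22 and Blk). All were present, and they summed to 1953 with Ascl2 and 2271 with the empty vector. Higher with Ascl2 were 2 of the 6, against 48.4% of expressed genes. None of 6 T cell markers was in the tables. Of 7 myeloid markers 6 were listed, and they summed to 50.1 with Ascl2 and 45.2 with the empty vector. Higher with Ascl2 were 5 of the 6, against the same 48.4%, and 1 of the 5, Adgre1, differed little (5.37 against 5.30). The part of the myeloid markers in the results below was not tested. Of 5 stromal markers 2 were listed, with sums of 1.004 with Ascl2 and 0.536 with the empty vector. In bulk RNA of this kind, fewer cells of a type and less RNA per cell cannot be told apart.

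The recombination and Fanconi genes had similar levels with Ascl2 and with the empty vector. Each of the 33 was expressed above 1 in both libraries, at 3.11 to 31.3 with Ascl2 (median 11.4) and 2.60 to 28.1 with the empty vector (median 11.0). The log2 ratio, computed after 1 was added to both values, Ascl2 over empty vector, was at most 0.41 (Fancb) and at least −0.42 (Xrcc3). No member was 2-fold higher, where 1.53% of 12283 expressed genes were, and none was 2-fold lower, where 0.716% were. No member passed 1.5-fold either, against a background of 5.01% higher and 4.31% lower. Within 1.2-fold lay 28 of the 33 members (84.8%) and 60.6% of all expressed genes. All 33 lay between percentiles 5 and 95 of the expressed genes, which are log2 ratios of −0.55 and 0.58.

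**Figure D1:**
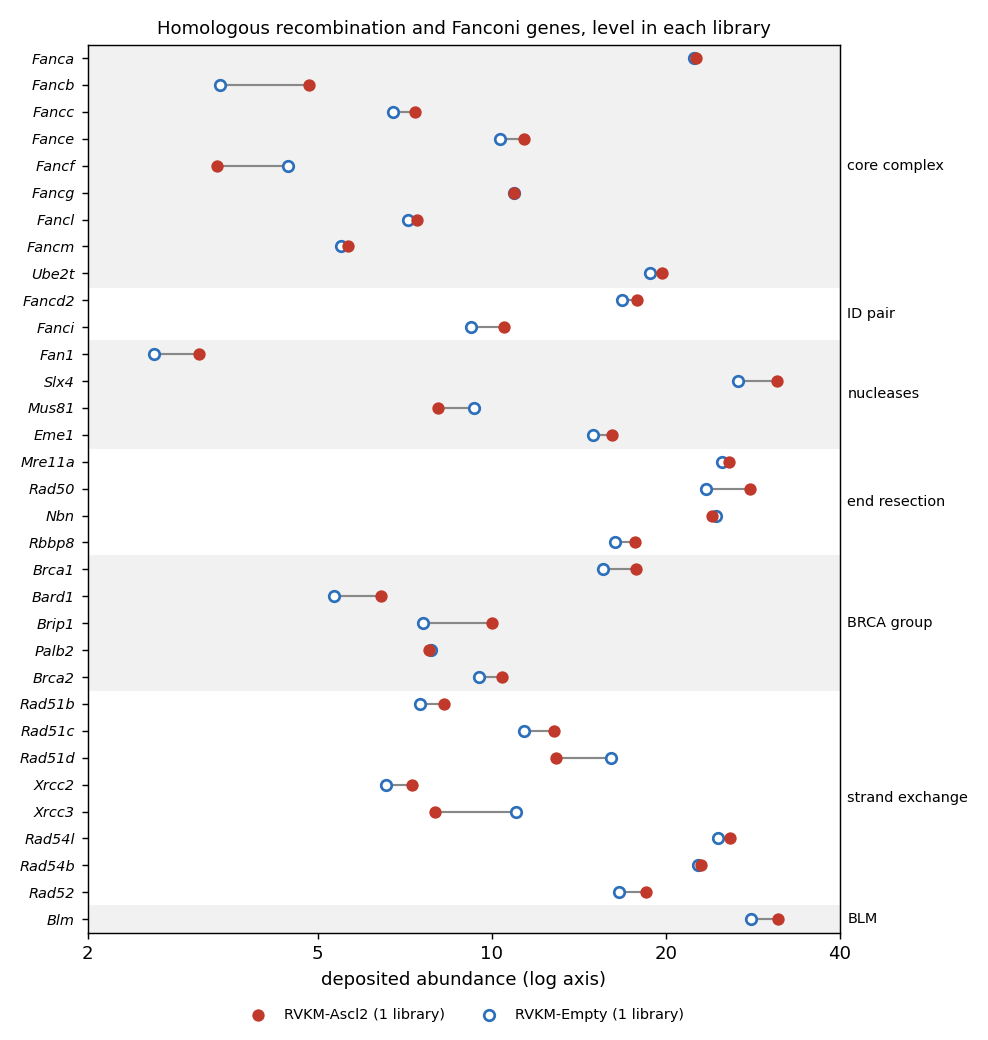
Deposited abundance of each of the 33 genes (log axis) in the RVKM-Ascl2 library (filled circles) and in the RVKM-Empty library (open circles), 1 library each, with genes grouped by role. A line joins the values of a gene, and most filled circles lie a little to the right of the open ones, with Xrcc3, Fancf, Rad51d and Mus81 clearly to the left.

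Small as they were, the differences mostly had the same sign. A log2 ratio above 0 was found for 27 of 33 members (81.8%), against 48.4% of expressed genes. Among the 30 members that reached 5 in either library it was 25, against 46.3% of all genes that did. The median over the members was 0.11 and the middle 50% of them lay between 0.02 and 0.16, while the median of all expressed genes was −0.01. The members' values summed to 476 with Ascl2 and 449 with the empty vector, a ratio of 1.06, and the sums of all expressed genes had a ratio of 1.02. Under 3 rescalings of the libraries 24 members stayed above 0 and 4 stayed below. The share of expressed genes above 0 was 45.1% to 53.9% under these rescalings. Fanca, Fancg, Rad54b, Nbn and Palb2 changed sign, so no direction is given for them. The order of the genes by level was nearly the same in both libraries, with a Spearman rho of 0.98 over the 33 genes, which share their libraries.

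**Figure D2:**
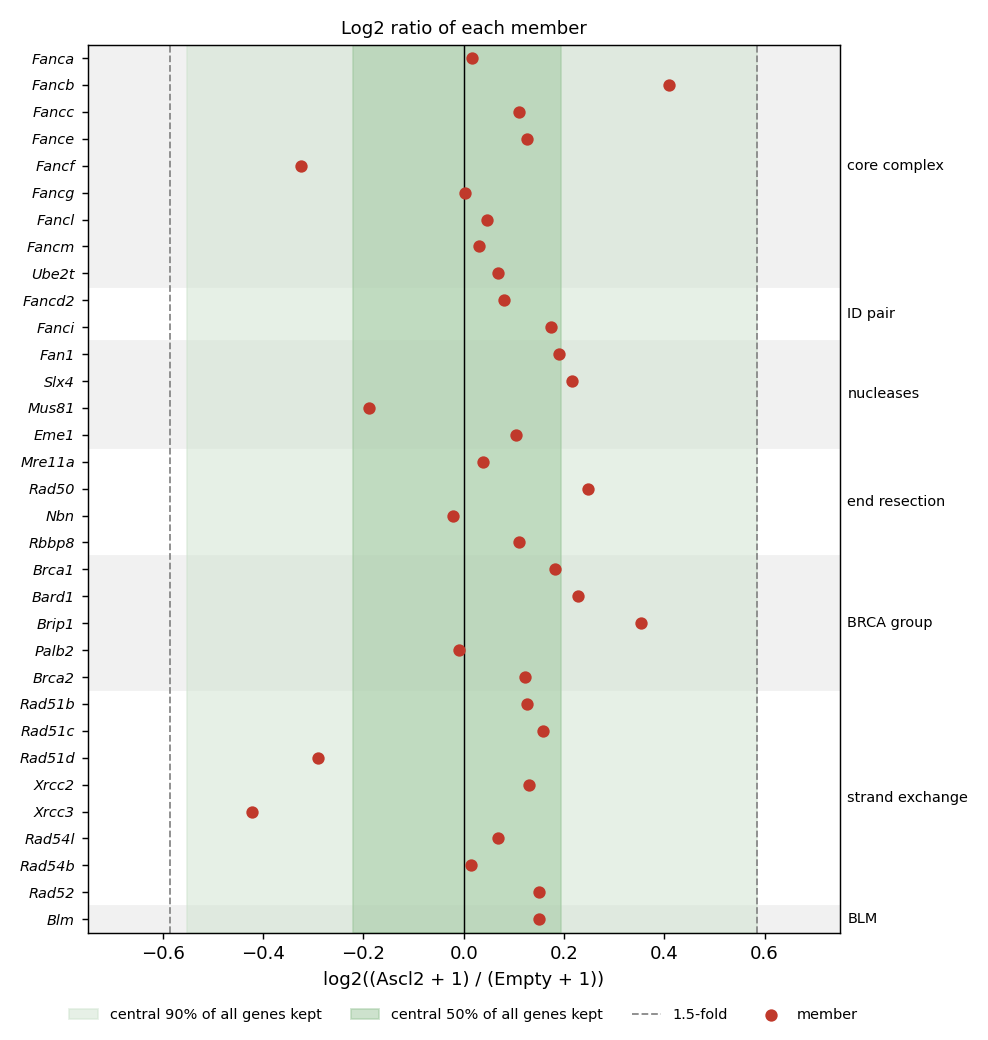
Log2 ratio of each member (points), from 1 library per group, over the central 50% and 90% of the 12283 expressed genes (dark and light green), with dashed lines at 1.5-fold. All 33 points lie inside the dashed lines, 27 of them to the right of 0.

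The core complex, which acts as the ubiquitin ligase of the pathway, is represented by 8 subunits and by Ube2t, the conjugating enzyme that hands it ubiquitin. Its catalytic part is built around Fancl, the ligase subunit, and Fancb, its partner. Fancb was 4.83 in the RVKM-Ascl2 library and 3.39 in the RVKM-Empty library (log2 ratio 0.41), above the ratio of 90.3% of expressed genes. Fancl was 7.43 with Ascl2 and 7.16 with the empty vector. Ube2t was 19.7 with Ascl2 and 18.8 with the empty vector. Fancl and Ube2t thus differed far less than Fancb did.

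Fancf, an adaptor that ties the subunits together, stood on the other side, at 3.35 with Ascl2 and 4.44 with the empty vector (log2 ratio −0.32). Fanca, which binds Fancg, was 22.6 with Ascl2 and 22.3 with the empty vector. Fancg was 10.9 in both libraries. Fance, the bridge to the FANCD2 and FANCI pair, was 11.4 with Ascl2 and 10.3 with the empty vector, and Fancc, which binds Fance, was 7.36 with Ascl2 and 6.74 with the empty vector. Fancm, the DNA translocase that brings the complex to stalled forks, was 5.64 with Ascl2 and 5.49 with the empty vector. Of the 9 genes, 8 had a ratio above 0, against 48.4% of expressed genes, with a median log2 ratio of 0.05. The count was 6 when the libraries were scaled to equal sums and 5 with the trend over gene length, described below, removed. Fancb and Fancf are low-abundance genes that overlap a neighbour in the annotation. Mospd2, which shares 26 bases with Fancb, was 10.9 with Ascl2 and 7.87 with the empty vector, and Gas2, which shares 477 bases with Fancf, was 3.57 with Ascl2 and 4.68 with the empty vector. In the deposited values, 7 of the 11 listed genes that overlap a member had a ratio of the same sign as the member. The other 4 had the opposite sign: Zfp276 over Fanca, Lrrc59 and Mrpl27 over Eme1, and Lrrc41 over Rad54l. Fanca and Rad54b, which Fsbp overlaps with the same sign, changed sign under rescaling, so these counts depend on the scaling. The strand setting of the counting is not given in the sources used here, so reads of overlapping genes cannot be told apart.

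The pair that receives the ubiquitin and clamps onto DNA differed little. Fancd2 was 17.8 with Ascl2 and 16.8 with the empty vector (log2 ratio 0.08). Fanci was 10.5 with Ascl2 and 9.20 with the empty vector (log2 ratio 0.17). Polg, which overlaps Fanci by 4036 bases, was 23.7 with Ascl2 and 22.8 with the empty vector.

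Among the nucleases that act after the pair, Slx4, the scaffold that gathers several of them, was among the most abundant members. It was 31.2 in the RVKM-Ascl2 library and 26.7 in the RVKM-Empty library (log2 ratio 0.22). Mus81, which cuts branched DNA, and its partner Eme1 went opposite ways. Mus81 was 8.06 with Ascl2 and 9.33 with the empty vector (log2 ratio −0.19), while Eme1 was 16.2 with Ascl2 and 14.97 with the empty vector (0.11). With the trend over gene length removed the ratios were −0.06 for Mus81 and 0.18 for Eme1. Fan1, a nuclease that binds ubiquitinated FANCD2, was the least abundant member in both libraries, at 3.11 with Ascl2 and 2.60 with the empty vector.

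End resection, the trimming of breaks, starts with the complex of Mre11a (the nuclease), Rad50 (an ATPase that tethers ends) and Nbn (which also recruits the kinase ATM). Mre11a was 25.7 with Ascl2 and 24.997 with the empty vector. Rad50 was 28.0 in the RVKM-Ascl2 library and 23.4 in the RVKM-Empty library (log2 ratio 0.25). Nbn was 24.0 with Ascl2 and 24.4 with the empty vector. With the empty vector the 3 subunits lay within 23.4 to 24.997, and with Ascl2 within 24.0 to 28.0. Rad50 had the largest log2 ratio of the 3. Rbbp8, which encodes CtIP, the cofactor that switches the nuclease on, was 17.7 with Ascl2 and 16.3 with the empty vector.

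The BRCA genes had the highest median log2 ratio of the role groups with more than 1 gene, 0.18 over 5 genes. Of these 5, 4 were above 0, against 48.4% of expressed genes. With the length trend removed the median was 0.10, below the 0.18 of the nucleases, so this order of groups depends on the processing. Brip1, the helicase that binds BRCA1, was 10.002 in the RVKM-Ascl2 library and 7.61 in the RVKM-Empty library (log2 ratio 0.35), above the ratio of 87.4% of expressed genes. Bard1, the obligate partner of BRCA1, was 6.42 with Ascl2 and 5.34 with the empty vector (0.23). Brca1 itself was 17.8 with Ascl2 and 15.6 with the empty vector (0.18). The RNA of Bard1 and Brip1 thus had ratios on the same side as that of Brca1, above 0, where 27 of 33 members lay. All 3 genes span over 50 kb, and 60.8% of expressed genes of that length were above 0. Brca2, which prepares single strands for exchange, was 10.4 with Ascl2 and 9.50 with the empty vector. Palb2, the link between BRCA1 and BRCA2, was 7.80 with Ascl2 and 7.85 with the empty vector, a difference smaller than the shifts between scalings.

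The group of Rad51b, Rad51c, Rad51d, Xrcc2 and Xrcc3, which help strands to exchange, held 2 of the 3 lowest ratios of the module. Xrcc3 was 7.97 in the RVKM-Ascl2 library and 11.03 in the RVKM-Empty library (log2 ratio −0.42), below all but 9.51% of expressed genes. Rad51d was 12.9 with Ascl2 and 16.1 with the empty vector (−0.29). The partners of these proteins went the other way. Rad51c, which pairs with XRCC3 and also joins RAD51B, RAD51D and XRCC2 in a complex, was 12.8 with Ascl2 and 11.4 with the empty vector (0.16). Rad51b was 8.28 with Ascl2 and 7.51 with the empty vector, and Xrcc2 was 7.27 with Ascl2 and 6.55 with the empty vector. Klc1, a kinesin light chain gene that overlaps Xrcc3 by 4653 bases, was far more abundant than Xrcc3, at 88.2 with Ascl2 and 100.1 with the empty vector. Rad51d shares no bases with another gene of the annotation.

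The remaining genes for strand exchange had ratios between 0.01 and 0.15, with Rad54b changing sign under rescaling. Rad54l, a motor protein that helps strands to invade, was 25.8 with Ascl2 and 24.6 with the empty vector, and its relative Rad54b was 23.0 in the RVKM-Ascl2 library and 22.7 in the RVKM-Empty library. Rad52, which anneals single strands, was 18.5 with Ascl2 and 16.6 with the empty vector (log2 ratio 0.15). Blm, the helicase that dissolves the joined strands, was the most abundant member in both libraries, at 31.3 with Ascl2 and 28.1 with the empty vector (0.15). The pseudogene Ndufab1-ps lies over 1718 bases of Blm and was 3.41 with Ascl2 and 1.97 with the empty vector.

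By the log2 ratio with 1 added, 5 members differed by at least 1.2-fold. Fancb and Brip1 were higher with Ascl2, where 18.5% of expressed genes were past that size, and Xrcc3, Fancf and Rad51d were lower, where 20.9% were. The members' shares, 2 and 3 of 33, were below that background in both directions. Without the added 1 there were 6 members, Bard1 being the further one. The difference in shares between members and expressed genes was not tested. A value of 5 in either library was reached by 30 of the 33 members and by 9196 of the 12283 expressed genes. Shares past 1.2-fold among genes that reached 5 were not counted.

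The length of the genes moved with the direction. Over the 33 members the log2 ratio had a Spearman rho of 0.39 with genomic span, the distance between the ends of the annotated gene, and over 11316 expressed genes with a known span the rho was 0.19. All 15 members over 50 kb had a ratio above 0 in the deposited values, against 60.8% of expressed genes of that span. With equal sums 13 of the 15 did, because Fanca and Rad54b changed sign. Among the 4 members under 10 kb, 2 were above 0, against 37.6% of expressed genes. Of the 6 members between 10 and 20 kb 4 were above 0 (43.0% of expressed genes), and of the 8 between 20 and 50 kb 6 were (51.2%). The median span was 35.0 kb for the members and 20.1 kb for expressed genes, so the module holds longer genes than the table at large. Fancf spans 1.69 kb, Mus81 5.83 kb, Xrcc3 10.7 kb and Rad51d 18.7 kb, and these are the 4 members that stayed below 0 under each rescaling.

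With the running median of the ratio over span subtracted, the module's median was 0.07 and 22 of 33 members lay above 0, against 50% of expressed genes. Of the 15 members over 50 kb, 10 lay above 0 after the subtraction. The ratios after this removal were −0.34 for Xrcc3, −0.26 for Rad51d, −0.11 for Fancf and −0.06 for Mus81. For the members at the upper end they were 0.43 for Fancb, 0.28 for Brip1 and 0.23 for Slx4. The removal thus left Xrcc3 and Fancb as the extremes and brought Fancf and Mus81 closer to the rest. Why the ratio varies with span in these libraries was not tested.

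**Figure D3:**
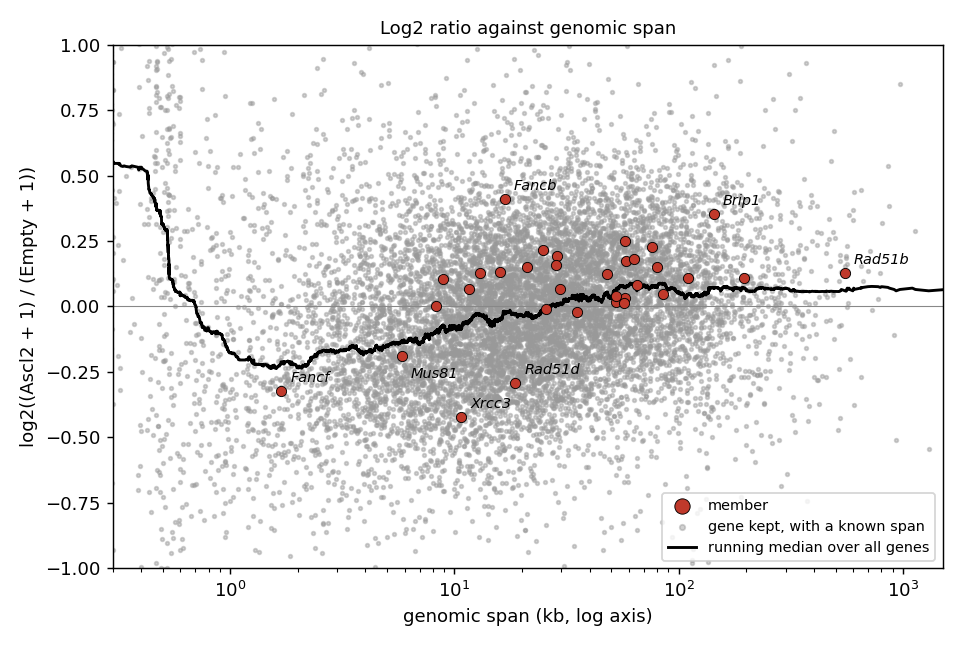
Log2 ratio against genomic span (kb, log axis) for the members (red) and for all expressed genes of known span (grey), with the running median over all of them (black line), from 1 library per group. Of the grey points, 288 lie outside the axes; the members over 50 kb all sit above 0 in the deposited values, and Fancf, Mus81, Xrcc3 and Rad51d lie below 0 at shorter spans.

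Other genes of the pathway were more evenly divided in sign. A list of 46 further recombination and Fanconi genes, all of them expressed, had 18 above 0 (39.1%), against 48.4% of expressed genes. The list's median log2 ratio was −0.03, and none of its genes was past 2-fold. Past 1.5-fold none was higher and 2 were lower, Psmc3ip and BC030867. That is 4.35% of the list, about the 4.31% of expressed genes past that size. Psmc3ip, a cofactor of strand invasion known from meiosis, was 7.43 in the RVKM-Ascl2 library and 12.9 in the RVKM-Empty library (log2 ratio −0.72). BC030867, also called Hrob, which loads the MCM8 and MCM9 helicase, was 10.5 with Ascl2 and 16.6 with the empty vector (−0.62). Zswim7, which acts in recombination, was 2.92 with Ascl2 and 4.85 with the empty vector (−0.58). The genes of the list are shorter, with a median span of 17.2 kb. With the span trend removed the list's median was 0.007, and 22 of 40 with a span were above 0, against 50% of expressed genes. Among the 5 genes of this list over 50 kb, 3 were above 0 with a median of 0.09, against 0.11 for the 15 members of that length. Of all expressed genes of that length 60.8% were above 0, with a median of 0.07. The difference between the lists was not tested.

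Genes of DNA replication are active in the same phase of the cell cycle. Of these 20 of 45 were above 0 (44.4%, against 48.4% of expressed genes), with a median log2 ratio of −0.06. Their median span was 19.0 kb. With the span trend removed 22 of 45 were above 0, against 50% of expressed genes, with a median of −0.007. The replication gene Pold2 was 33.4 with Ascl2 and 51.7 with the empty vector (−0.62). It was the 1 gene of the 45 past 1.5-fold, where 4.31% of expressed genes were lower by that size. Pold1, the catalytic subunit of the same polymerase, was 82.6 with Ascl2 and 115.0 with the empty vector, while Orc4, of the origin recognition complex, was 40.4 with Ascl2 and 28.2 with the empty vector. Genes of end joining, the other route of break repair, had 10 of 19 above 0 (52.6%) and a median of 0.06. With the span trend removed 10 of 18 with a span were above 0, with a median of 0.05. H2afx, the histone variant that marks breaks, was 106.4 with Ascl2 and 165 with the empty vector (−0.63). It was the 1 gene of the 19 past 1.5-fold. Mad2l2 of the shieldin complex was 14.8 with Ascl2 and 20.95 with the empty vector, and the ligase gene Lig3 was 13.3 with Ascl2 and 9.53 with the empty vector. No member of these 2 lists was past 2-fold. The medians of all 3 comparison lists lay closer to 0 than that of the module.

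**Figure D4:**
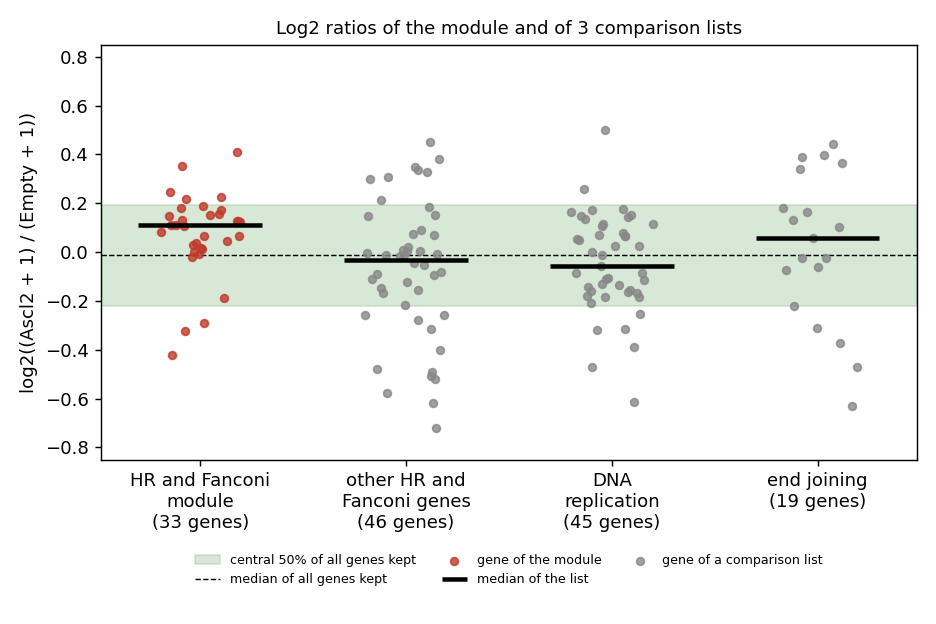
Log2 ratios of the 33 members (red) and of the genes of 3 comparison lists (grey), 1 point per gene and 1 library per group, with the median of each list (bar), the median of all expressed genes (dashed) and their central 50% (green). The medians are 0.11 for the module, −0.03 for other recombination and Fanconi genes, −0.06 for replication and 0.06 for end joining.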

How the data were processed

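RNA was measured in 2 libraries, grouped by sample title. The authors deposited 1 signal value per gene. Its unit is not given in the sources used here, and the same holds for the quantifier, the annotation and any use of strand. The submitters' processing notes name mm10, Trim Galore, Bowtie2, Picard and MACS2, without versions or roles. Values summed to 763932 (Ascl2) and 750692 (empty vector), none was 0, and each gene reached 0.475 in at least 1 library. The depth is unknown, no counting interval can be computed, and low genes are less precise.

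Members were matched on the symbols in the files. Log2 ratios used a pseudocount of 1, which understates differences of low genes, and a filter of 1 in either library. Members and lists were chosen with earlier results of these data known. Some genes are not reported here and were left out of the lists. All members could be named, and from each other list those past 2-fold and the 3 largest ratios; genes that overlap a member, the 2 past 1.5-fold among other pathway genes and the printed promoters were chosen after values were seen. Spans, overlaps and promoters came from RefSeq on GRCm38.p6, matched by symbol. The span trend was a running median over each gene and the 500 around it in order of span. Analysis used Python 3.11.15, pandas 2.3.3, numpy 2.4.6 and matplotlib 3.10.9, and was tested on simulated data. Alternatives were a pseudocount of 0.1 or 5, a filter of 5 or none, 3 rescalings (to equal sums, equal upper quartiles or a median ratio of 0), removal of the span trend, the mean, a 3-fold limit and a shorter promoter window.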

Additional observations from a re-analysis of the deposited data

How the results depend on the processing

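The counts past 2-fold and past 1.5-fold were 0 of the members under each alternative run, including a 3-fold limit in place of 2-fold. The count above 0 was 24 to 29 of 33 under the 3 rescalings, 25 of 30 with a filter of 5 and 22 with the span trend removed. The median log2 ratio of 0.11 was 0.0686 with the span trend removed and 0.0726 when the mean replaced the median. Both alternatives lowered it by more than 1.5 times. Under the other pseudocounts, filters and rescalings it was 0.0846 to 0.151. Leaving out the 10 members overlapped by another listed gene, chosen after seeing the data, gave 0.123 with 19 of 23 above 0, against 48.4% of expressed genes. In the 250 bases before the start alone, the E2F cores were in 0 of 26 genes, against 1 in the full window, because that match lies after the start. CAGCTG was in 4 of 26 in both windows, with 17.0% of expressed genes in the full one and 13.4% in the shorter one. Leaving out 3 members with windows far from the gene's end, chosen after seeing the data, gave 3 of 23 for CAGCTG and 13 of 23 for CCAAT. No paired analysis was possible because each group has 1 library. For the same reason no library could be left out, and the precision of each ratio is unknown.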
